A study of Homo sapiens with 8 samples.

Results

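Tight junction genes were followed in AsPC-1 and PANC-1, established human lines of pancreatic cancer, through 10 genes chosen by name: the claudins CLDN1, CLDN3, CLDN4, CLDN7 and CLDN18, the tetraspan proteins OCLN and MARVELD2, the adhesion molecule F11R, and the scaffolds TJP1 and TJP3. All 10 were found by symbol among the 62649 genes of the deposited table, and 9 reached at least 1 TPM in 2 or more libraries and were tested. CLDN18 was the gene left out of the tests. TPM is a relative abundance that divides reads by transcript length and scales every library to the same total, so levels can be set against each other between genes, and the sequencing depth behind each value is unknown. RNA came from cells kept for 3 days in methylcellulose medium, where they grow as spheroids, and then exposed for 24 h to vehicle, to 10 µM roseoflavin (a riboflavin analogue made by a bacterium), to 1 nM trametinib (an inhibitor of the MEK kinases), or to both compounds. Each of these 8 groups was 1 library, each line is a single cell line, and no group had a replicate. The spread given for a line is therefore the SD over its 4 treatments, and p-values rest on the spread that a model leaves after line and compound terms.

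Tight junctions seal the space between neighbouring epithelial cells near their apical side. Claudins form the paracellular strands and set which ions pass, occludin (OCLN) and tricellulin (MARVELD2) stabilise strands and the corners where 3 cells meet, F11R (JAM-A) is an immunoglobulin-type adhesion molecule beside the strands, and the ZO proteins TJP1 (ZO-1) and TJP3 (ZO-3) tie them to actin. In pancreatic ductal cells CLDN4, CLDN7 and CLDN3 are typical epithelial claudins, and CLDN18 is a stomach claudin that many pancreatic tumours express. The snail and ZEB families of repressors bind E-boxes in promoters of epithelial genes.

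The 250 bases before the RefSeq start are shown for CLDN3, CLDN4 and CLDN7, the claudins with the highest levels here, because their levels differed between the lines by very different amounts. Letters are on the gene's own strand in GRCh38.p14. Capitals mark CAGGTG, an E-box, on either strand, and TGANTCA, a spelling close to the AP-1 element, and no window shown holds both spellings.

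CLDN3, chr7:73770271-73770520, minus strand: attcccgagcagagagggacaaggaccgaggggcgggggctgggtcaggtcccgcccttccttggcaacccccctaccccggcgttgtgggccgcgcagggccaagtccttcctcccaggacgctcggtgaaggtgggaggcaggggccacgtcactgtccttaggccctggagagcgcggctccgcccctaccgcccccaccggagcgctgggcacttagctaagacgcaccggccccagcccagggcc

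CLDN4, chr7:73830746-73830995, plus strand: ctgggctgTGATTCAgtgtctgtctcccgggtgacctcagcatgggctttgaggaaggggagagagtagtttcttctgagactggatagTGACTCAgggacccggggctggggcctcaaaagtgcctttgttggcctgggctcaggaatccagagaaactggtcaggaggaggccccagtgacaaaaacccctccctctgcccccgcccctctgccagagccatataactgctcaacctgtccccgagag

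CLDN7, chr17:7262479-7262728, minus strand: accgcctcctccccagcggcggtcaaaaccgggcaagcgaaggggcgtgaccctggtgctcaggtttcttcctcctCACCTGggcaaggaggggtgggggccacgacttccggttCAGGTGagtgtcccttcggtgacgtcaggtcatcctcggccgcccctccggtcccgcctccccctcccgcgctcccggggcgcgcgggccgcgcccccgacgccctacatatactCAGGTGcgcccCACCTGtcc

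CLDN7 held 4 copies of CAGGTG in the letters shown and 5 in the full window of 300 bases, which runs 50 bases past the start. Of the 35116 promoter windows of that length in the RefSeq table, 20.6% held at least 1 copy and 0.0940% held at least 5. This CLDN7 start was the one shown because it held the spelling, so its count is not that of an unselected window. The other CLDN7 start in the table held 0. CLDN3 held 1 copy, past the start and so not in the letters shown, and CLDN4 held 0. CLDN4 held 2 copies of TGANTCA, a count that 0.515% of windows reached, and 7.71% of windows held at least 1. Windows were found for 9 of the 10 genes, 16 in all, and F11R had no entry. The grainyhead spelling AACCNGGTT was in 0 of the 16 windows and in 0.239% of all windows. These are matches of letters, and binding was not measured.

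TJP3, CLDN3, CLDN1 and CLDN4 were 5.63 to 24.4 times higher in AsPC-1 than in PANC-1 by mean TPM, CLDN7, MARVELD2, OCLN and F11R were 1.57 to 2.31 times higher, TJP1 was lower, and CLDN18 was near 0 in both lines. The 10 genes summed to 1358 ± 127 TPM in AsPC-1 (SD, n = 4 treatments), and in PANC-1 to 316 ± 19.5 TPM (n = 4). The sums were 1335, 1191, 1428 and 1479 TPM in AsPC-1 with vehicle, roseoflavin, trametinib and both, and 297, 318, 306 and 342 TPM in PANC-1 in the same order. That order of treatments holds for every list of 4 values that follows.

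**Figure D1:**
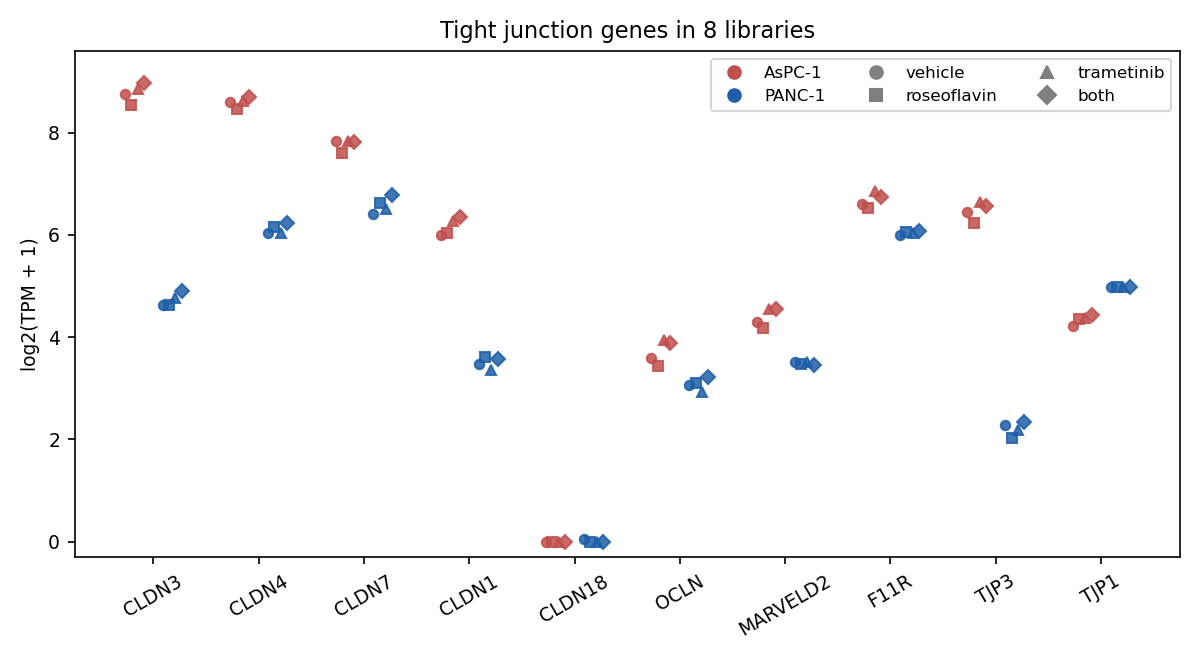
Level of each tight junction gene in log2(TPM + 1) (y axis) by gene (x axis), with AsPC-1 in red, PANC-1 in blue and the treatment given by the symbol, 1 point per library. Each of the 9 tested genes keeps the lines apart, with TJP1 the only one higher in PANC-1, and CLDN18 lies at or near 0 in all 8 libraries.

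Among the claudins, CLDN3 (ENSG00000165215), a sealing claudin, had the highest level in AsPC-1, at 430.1, 372, 462 and 502 TPM. In PANC-1 it was at 23.9, 23.7, 26.2 and 28.8 TPM. The lines did not overlap, and the mean ratio of AsPC-1 to PANC-1 was 17.2. CLDN4 (ENSG00000189143), which restricts sodium passage and is a receptor for a Clostridium toxin, was at 385, 349, 392 and 416 TPM in AsPC-1 and at 64.5, 69.7, 64.9 and 74.6 TPM in PANC-1, a ratio of 5.63. CLDN3 and CLDN4 are neighbours on chromosome 7, at 73768997 to 73770270 on the minus strand and 73799542 to 73832693 on the plus strand (GENCODE release 29, GRCh38). The neighbours did not keep the same proportion: CLDN3 was at 1.12, 1.06, 1.18 and 1.205 times CLDN4 in AsPC-1 and at 0.370, 0.339, 0.405 and 0.386 times in PANC-1.

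CLDN7 (ENSG00000181885, chromosome 17, 7259903 to 7263983, minus strand), a claudin also found along the basolateral membrane, differed less between the lines. It was at 227, 194, 228 and 224 TPM in AsPC-1 and at 83.4, 97.0, 89.3 and 108 TPM in PANC-1, a ratio of 2.31. CLDN7 was below CLDN4 in every AsPC-1 library, at 0.590, 0.556, 0.583 and 0.537 times, and above it in every PANC-1 library, at 1.29, 1.39, 1.38 and 1.45 times. CLDN7 shares its position with an unnamed gene on the same strand (ENSG00000262302, 444 to 501 TPM in AsPC-1 and 357 to 407 TPM in PANC-1) and with ELP5 on the opposite strand, and how shared reads were assigned is not given in the sources used here.

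CLDN1 (ENSG00000163347, chromosome 3, 190305701 to 190322475, minus strand), the claudin that skin barrier function depends on, was at 63.0, 64.4, 76.4 and 80.8 TPM in AsPC-1. In PANC-1 it was at 10.2, 11.2, 9.21 and 10.9 TPM, so the mean was 6.85 times higher in AsPC-1. CLDN18 (ENSG00000066405, chromosome 3, 137998735 to 138033655, plus strand) was listed at 0 in 7 libraries and at 0.030 TPM in PANC-1 with vehicle. No level of CLDN18 above that was seen under any treatment, and with no depth in the files an upper limit could not be set.

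The tetraspan proteins were less abundant and closer between the lines. OCLN (ENSG00000197822, chromosome 5, 69492292 to 69558104, plus strand) was at 11.01, 9.79, 14.5 and 13.8 TPM in AsPC-1 and at 7.40, 7.56, 6.63 and 8.27 TPM in PANC-1. The lowest AsPC-1 library was above the highest PANC-1 library. The pseudogene copy OCLNP1 was at 6.11, 8.46, 11.9 and 8.52 TPM in AsPC-1 and was listed at 0 in the 4 PANC-1 libraries, so the OCLN value is uncertain to the extent that reads were split between the copies. MARVELD2 (ENSG00000152939), its neighbour on chromosome 5 at 69415065 to 69444330 on the plus strand, was at 18.7, 17.0, 22.3 and 22.4 TPM in AsPC-1 and at 10.4, 10.1, 10.4 and 9.99 TPM in PANC-1. By the values listed, MARVELD2 stayed above OCLN in all 8 libraries, at 1.54 to 1.74 times in AsPC-1 and 1.21 to 1.57 times in PANC-1. In AsPC-1 that order could change if the reads listed for OCLNP1 came from OCLN.

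F11R (ENSG00000158769, chromosome 1, 160995211 to 161021348, minus strand) was at 96.6, 90.7, 114 and 106 TPM in AsPC-1 and at 62.8, 65.3, 64.8 and 66.0 TPM in PANC-1. Its mean was 1.57 times higher in AsPC-1, the smallest ratio among the genes that were higher there. It overlaps an unnamed gene on the same strand (ENSG00000270149), at 120 to 154 TPM in AsPC-1 and 98.4 to 103 TPM in PANC-1. That gene was listed above F11R in every library, and how shared reads were assigned is not given in the sources used here.

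The 2 scaffolds went opposite ways. TJP3 (ENSG00000105289, chromosome 19, 3708109 to 3750813, plus strand), a ZO protein largely restricted to epithelia, was at 86.5, 74.4, 99.6 and 93.8 TPM in AsPC-1 and at 3.85, 3.08, 3.55 and 4.03 TPM in PANC-1, a ratio of 24.4. TJP1 (ENSG00000104067, chromosome 15, 29699367 to 29968865, minus strand), a ZO protein also found at junctions of non-epithelial cells, was at 17.6, 19.3, 19.7 and 20.5 TPM in AsPC-1 and at 30.5, 30.7, 30.5 and 30.5 TPM in PANC-1. TJP3 was therefore at 4.92, 3.85, 5.06 and 4.58 times TJP1 in AsPC-1 and at 0.126, 0.1004, 0.116 and 0.132 times in PANC-1. TJP1 varied least of the tested genes in PANC-1, with an SD of 0.0864 TPM over the 4 treatments.

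The order of levels differed between the lines. In AsPC-1 it ran CLDN3, CLDN4, CLDN7, F11R, TJP3, CLDN1, MARVELD2, TJP1 and OCLN by mean. The ranges over treatments overlapped there for CLDN3 and CLDN4, F11R and TJP3, TJP3 and CLDN1, and MARVELD2 and TJP1. Within each library the order was nevertheless the same in all 4, except that TJP1 was above MARVELD2 with roseoflavin. In PANC-1 the order was CLDN7, CLDN4, F11R, TJP1, CLDN3, CLDN1, MARVELD2, OCLN and TJP3, and the ranges overlapped for CLDN4 and F11R and for CLDN1 and MARVELD2. CLDN4 was above F11R in each of the 4 PANC-1 libraries, while CLDN1 was above MARVELD2 in 2 of them. CLDN3 made up 31.2% to 33.9% of the summed TPM of the 10 genes in AsPC-1 and 7.43% to 8.59% in PANC-1. F11R made up 7.18% to 8.002% and 19.3% to 21.2%, and TJP1 1.32% to 1.62% and 8.93% to 10.3%.

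**Figure D2:**
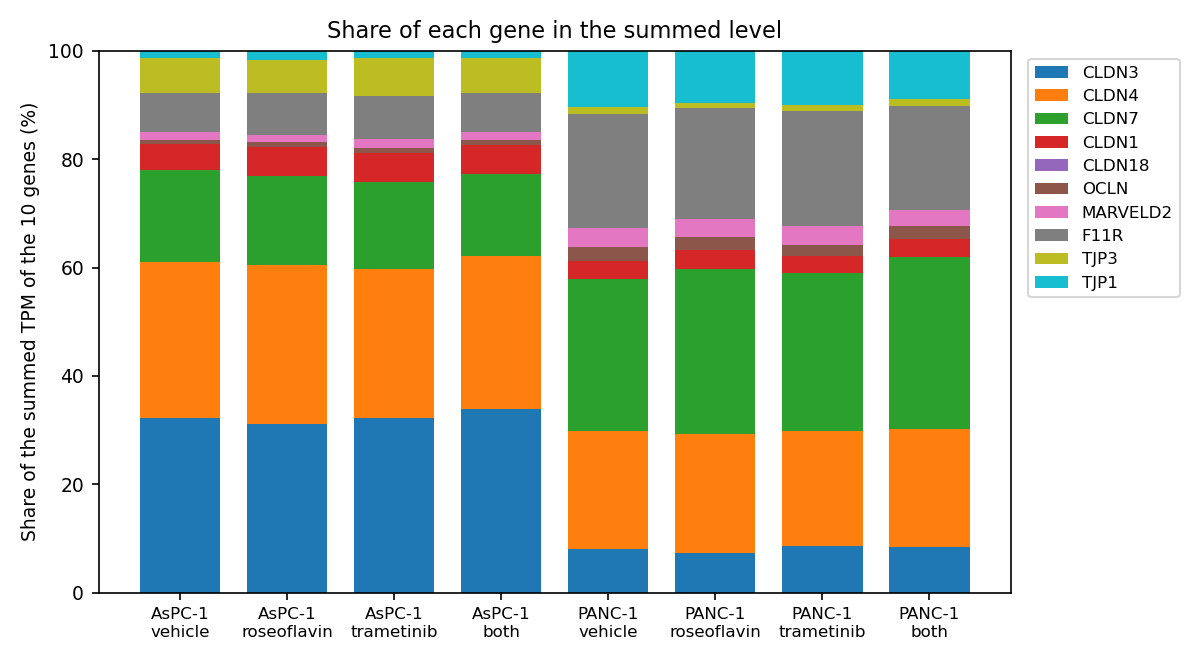
Share of each gene in the summed TPM of the 10 genes in percent (y axis) for each library (x axis). CLDN3 fills 31.2% to 33.9% of the AsPC-1 bars and 7.43% to 8.59% of the PANC-1 bars, where CLDN7 takes the most, 28.1% to 31.8%.

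The first comparison set the 4 libraries of one line against the 4 of the other. All 9 tested genes passed in limma at a Benjamini-Hochberg adjusted p of 0.05, 8 higher in AsPC-1 and 1 (TJP1) higher in PANC-1. Over all 19122 genes tested, 21.5% were called higher in AsPC-1 and 62.3% higher in PANC-1, so a call between the lines was common, and more often toward PANC-1. On the log2(TPM + 1) scale, which understates the change of low genes, the difference of AsPC-1 minus PANC-1 was 4.27 for TJP3 (SE 0.0768, adjusted p 2.44e-08) and 4.05 for CLDN3 (SE 0.0627, adjusted p 1.33e-08). It was 2.66 for CLDN1 (SE 0.0870, adjusted p 3.17e-07), 2.48 for CLDN4 (SE 0.0596, adjusted p 8.27e-08) and 1.202 for CLDN7 (SE 0.0844, adjusted p 1.28e-05).

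The differences of the remaining genes were smaller. MARVELD2 differed by 0.90 (SE 0.0755, limma adjusted p 3.23e-05), F11R by 0.64 (SE 0.0567, adjusted p 4.25e-05) and OCLN by 0.64 (SE 0.113, adjusted p 0.00162). TJP1 differed by -0.64 (SE 0.0450, adjusted p 1.28e-05). The median over the 9 genes was 1.202, and over all tested genes it was -0.55. Relative to that median, TJP1 stood at -0.09 and the others between 1.19 (OCLN) and 4.82 (TJP3).

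The TJP1 call held after rescaling without mitochondrial genes and was narrowly missed after quantile normalization. Transcripts of the mitochondrial genome took 41.2%, 44.1%, 42.2% and 41.3% of all TPM in AsPC-1 but 25.6%, 23.7%, 24.8% and 22.8% in PANC-1, and the common total moves every other gene with that share. After rescaling to the same total without the 37 mitochondrial genes, 20467 genes passed the filter, their median was -0.22, and TJP1 differed by -0.27 (adjusted p 0.00387). Over the 19085 genes tested both ways, the median moved by 0.31, from -0.56 to -0.25. After quantile normalization the median moved by 0.51 to -0.04, and TJP1 differed by -0.13 and no longer passed (adjusted p 0.0519). The 8 genes higher in AsPC-1 stayed so and passed under both scalings. Rescaling without mitochondrial genes gave 30.8% of the 20467 genes called higher in AsPC-1, against 48.0% in PANC-1, and quantile normalization gave 37.5% and 41.6%.

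**Figure D3:**
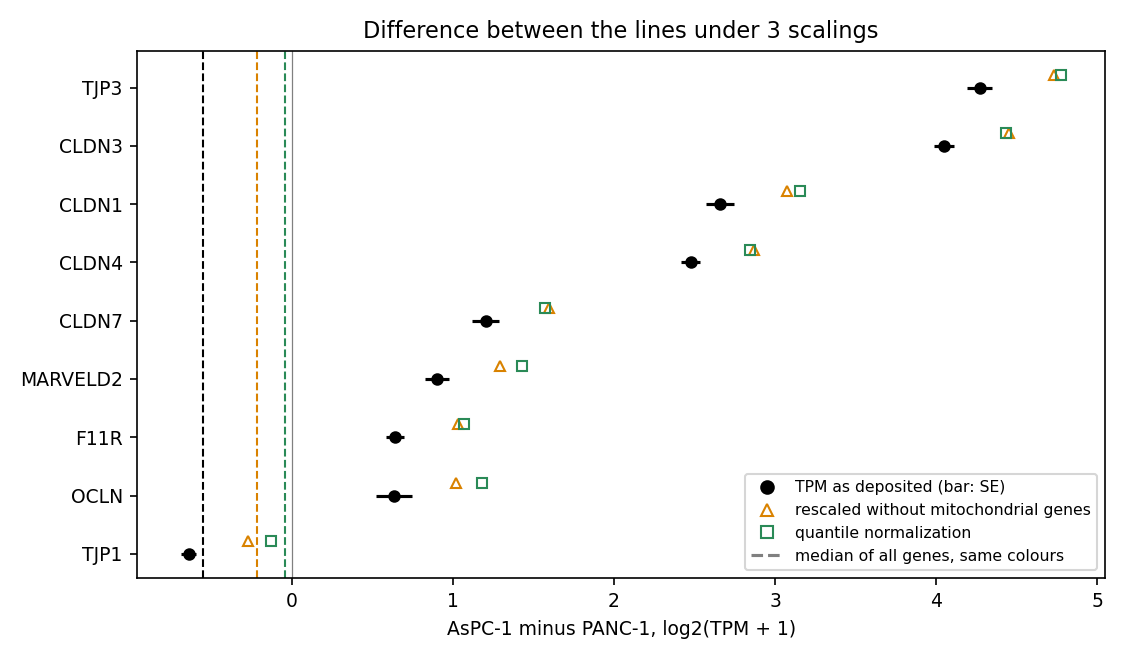
Difference between the lines, AsPC-1 minus PANC-1 in log2(TPM + 1) (x axis), for the 9 tested genes (y axis) with the TPM as deposited (black, bar 1 SE), after rescaling without mitochondrial genes (orange) and after quantile normalization (green); dashed lines give the median of all tested genes in the same colours. TJP1 lies close to the median of all genes under each scaling, and the other 8 genes lie to the right of it.

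The rest of the junction was read from lists of related genes. Counts with the TPM as deposited are to be set against all tested genes, 21.5% called higher in AsPC-1 and 62.3% in PANC-1. Counts after quantile normalization are to be set against 37.5% and 41.6% of all tested genes, in the same order. Of 17 other claudins, 7 were tested, of which 3 were higher in AsPC-1, 3 higher in PANC-1 and 1 not called in limma. The counts were 4 and 2 after quantile normalization. CLDN12, a claudin linked to calcium uptake, was at 59.5 to 75.6 TPM in AsPC-1 and 21.0 to 23.8 TPM in PANC-1 (difference 1.503, SE 0.0791). CLDN10, which forms ion-permeable pores, was listed at 0 in AsPC-1 and was at 4.29 to 4.80 TPM in PANC-1. CLDN11, the claudin of myelin and of Sertoli cells, was at 0 to 0.074 TPM in AsPC-1 and 2.47 to 3.55 TPM in PANC-1. Of 11 other membrane proteins of the junction, 8 were tested, 6 of them higher in AsPC-1 and 2 higher in PANC-1. The adhesion molecule CLMP was at 53.9 to 63.2 TPM in AsPC-1 and 4.71 to 6.27 TPM in PANC-1. JAM3, a relative of F11R, was listed at 0 in AsPC-1 and was at 37.1 to 41.6 TPM in PANC-1, and BVES was listed at 0 and was at 12.8 to 13.3 TPM.

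Of 20 tested scaffolds and polarity proteins from a list of 21, 6 were higher in AsPC-1, 12 higher in PANC-1 and 2 not called, a split near that of all genes (21.5% and 62.3%). After quantile normalization 9 were higher in AsPC-1 and 10 in PANC-1. CRB3, an apical polarity protein, was at 32.0 to 40.9 TPM in AsPC-1 and 0.065 to 0.448 TPM in PANC-1 (difference 4.94, SE 0.0470), and cingulin (CGN) was at 34.0 to 44.0 and 3.46 to 4.53 TPM. AMOT, an angiomotin that binds the Crumbs-PALS1 complex, was at 0.013 to 0.046 TPM in AsPC-1 and 9.23 to 10.1 TPM in PANC-1.

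Of 14 genes that signal to or from the junction, 8 were higher in AsPC-1, 4 higher in PANC-1 and 2 not called, against 21.5% and 62.3% of all genes. After quantile normalization the counts were 11 and 1. They included the membrane protease matriptase (ST14), at 180 to 240 TPM in AsPC-1 and 1.33 to 1.76 TPM in PANC-1 (difference 6.39, SE 0.0838). Prostasin (PRSS8), which acts in the same protease pathway, was at 15.4 to 21.3 TPM and 0 to 0.139 TPM, and its inhibitor partner SPINT1 was at 67.2 to 80.9 TPM and 6.73 to 8.71 TPM. Of 9 tested adherens junction genes, 5 were higher in AsPC-1 and 4 were higher in PANC-1 (6 and 1 after quantile normalization). E-cadherin (CDH1) was at 56.1 to 78.7 TPM and 5.02 to 6.56 TPM, NECTIN1 at 16.7 to 19.2 TPM and 6.88 to 8.76 TPM, and NECTIN3 at 0.113 to 0.166 TPM and 1.15 to 1.49 TPM.

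Of 13 tested epithelial transcription factors and splicing regulators, 9 were higher in AsPC-1, 3 higher in PANC-1 and 1 not called (10 and 2 higher after quantile normalization). KLF5 was at 188 to 227 TPM in AsPC-1 and 1.15 to 1.30 TPM in PANC-1 (difference 6.53, SE 0.0620). EHF, an ETS factor of epithelia, was at 86.1 to 95.7 TPM and 0.156 to 0.260 TPM, and HNF4A, a factor of liver and gut epithelium, was at 35.2 to 39.4 TPM and 0 to 0.051 TPM. GRHL2, a grainyhead factor that acts on claudin genes in other epithelia, was at most 0.036 TPM in any library. Its relatives were detected and were called higher in PANC-1. GRHL3 was at 3.08 to 3.965 TPM in AsPC-1 and 7.775 to 10.8 TPM in PANC-1, and GRHL1 at 0.460 to 0.700 TPM and 2.63 to 2.87 TPM.

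Among the repressors of epithelial genes, 3 of the 4 tested were higher in PANC-1, a direction called for 62.3% of all genes, and 1 was higher in AsPC-1. The counts were the same after quantile normalization. SNAI1 was at 0.406 to 0.896 TPM in AsPC-1 and 23.7 to 29.5 TPM in PANC-1 (difference -4.11, SE 0.125, limma adjusted p 2.26e-07). SNAI2, its relative, went the other way, at 13.6 to 15.7 TPM in AsPC-1 and 0.252 to 0.406 TPM in PANC-1 (difference 3.59, SE 0.0714, adjusted p 3.75e-08). TWIST2 was at 0 to 0.053 TPM and 4.28 to 5.45 TPM.

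**Figure D4:**
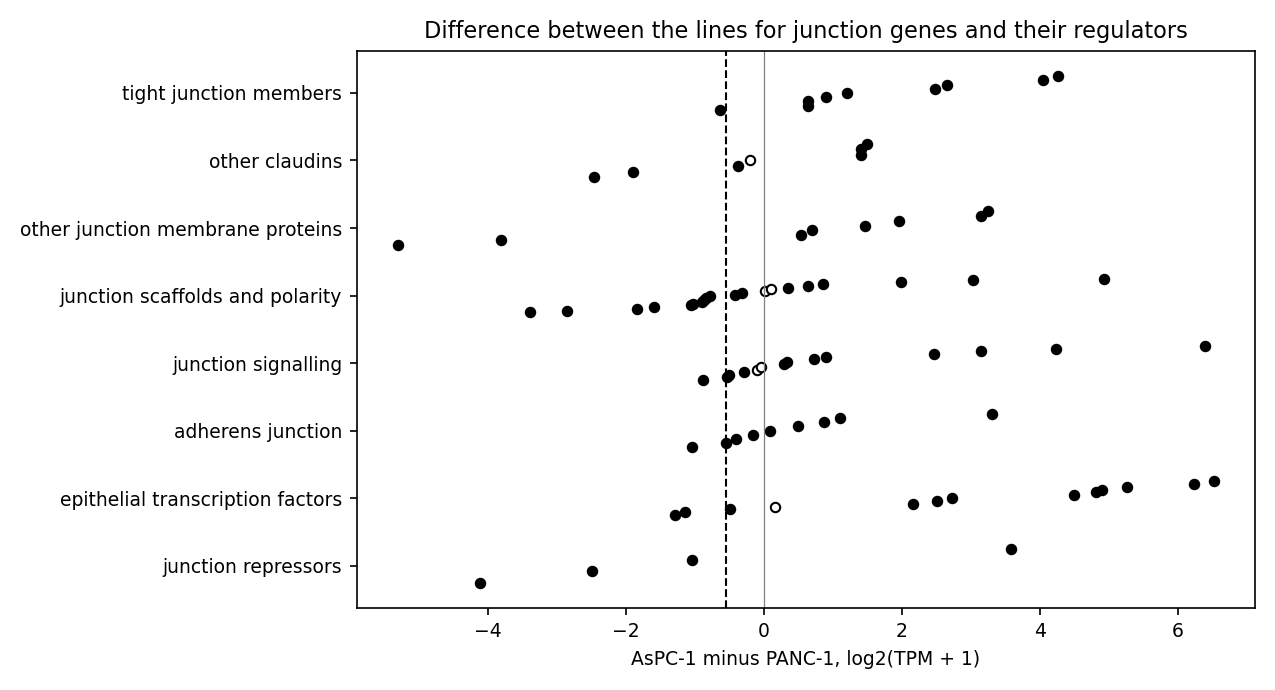
Difference between the lines, AsPC-1 minus PANC-1 in log2(TPM + 1) (x axis), for each tested gene of the 10 and of 7 related lists (y axis), filled where limma called it at an adjusted p of 0.05 and open where not; the dashed line is the median of all tested genes, -0.55. Of the 9 tight junction genes 8 lie to the right of 0, while scaffolds and polarity proteins lie on both sides, 12 of 20 called on the left, near the 62.3% of all genes.

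The line labels and the cell content were checked on marker genes. All 5 epithelial markers were called higher in AsPC-1, as were 21.5% of all tested genes. The 3 tested of 4 mesenchymal markers were called higher in PANC-1, a direction called for 62.3% of all tested genes. EPCAM ranged from 1224 to 1485 TPM in AsPC-1, against 14.5 to 16.8 TPM in PANC-1. Its line difference of 6.33 was the largest of the 5 epithelial markers, ahead of CDH1 (3.32). KRT18, KRT19 and KRT8 differed by only 1.33, 1.11 and 1.06. PANC-1 still held 879 to 989, 943 to 1032 and 852 to 990 TPM of these keratins. VIM ranged from 660.3 to 816 TPM in AsPC-1, against 3132 to 3391 TPM in PANC-1 (difference -2.14). CDH2 and ZEB1 differed by -2.71 and -1.04. FN1, the mesenchymal marker not tested, was at most 0.533 TPM in either line. The 8 markers of blood, endothelial, acinar, islet and stromal cells summed to 0.077 to 0.266 TPM in AsPC-1 and 0.884 to 1.04 TPM in PANC-1, and 0 of them passed the filter. In bulk RNA, fewer cells of a kind and less RNA per cell cannot be told apart.

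The second comparison asked what trametinib did within each line, with 2 libraries given the compound set against 2 without it. In AsPC-1, 0 of 9 genes passed in limma, nor did any of the 19122 genes (0% called); 2691 genes, 14.1%, had an unadjusted p under 0.05, among them 4 of the 9. All 9 estimates were positive, with a median of 0.27 on the log2(TPM + 1) scale, where 56.7% of all tested genes were positive with a median of 0.016, and 60.0% of those averaging 10 TPM or more. The estimates were 0.41 for OCLN (SE 0.0833, adjusted p 0.276), 0.31 for MARVELD2 (SE 0.0559, adjusted p 0.272), 0.30 for CLDN1 (SE 0.0461, adjusted p 0.271) and 0.23 for F11R (SE 0.0352, adjusted p 0.271).

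The other 5 estimates were 0.27 for CLDN3 (SE 0.0969), 0.27 for TJP3 (SE 0.113), 0.14 for CLDN4, 0.12 for TJP1 and 0.11 for CLDN7. Both trametinib libraries lay above both others for 8 of the 9 genes in AsPC-1, all but CLDN7, against 24.0% of all tested genes, and both lay below for 0, against 13.3%. As the levels above show, the size depended on the partner library for the abundant claudins. The change of CLDN3 was 0.10 from the vehicle library and 0.43 from the roseoflavin library, that of CLDN4 0.026 and 0.25, and that of CLDN7 0.0090 and 0.20. After rescaling without mitochondrial genes or after quantile normalization, 7 of the 9 lay above, against 19.8% and 20.9% of all genes, and TJP1 no longer did.

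In PANC-1 the same comparison gave 5 positive and 4 negative estimates with a median of 0.03, where 55.5% of all tested genes were positive. Again 0 of 9 genes and 0 of all genes passed in limma (0% called), while 919 genes, 4.81%, and 0 of the 9 had an unadjusted p under 0.05. CLDN3 had both trametinib libraries above both others, against 16.1% of all genes, and TJP1 had both below, against 11.6%, although its 4 values all lay between 30.5 and 30.7 TPM. After rescaling without mitochondrial genes TJP1 was no longer below.

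Genes that ERK induces were read beside these values from a list of 15. DUSP6, a feedback phosphatase, was at 193, 176, 155 and 136 TPM in AsPC-1 and at 18.6, 17.5, 14.0 and 12.5 TPM in PANC-1, so both trametinib libraries lay below both others in either line, against 13.3% and 11.6% of all genes, and the estimates did not pass (-0.34, limma adjusted p 0.271, and -0.42, adjusted p 0.474). Of the 15 genes, 4 had positive estimates in AsPC-1, where 56.7% of all genes did, and 2 had positive estimates in PANC-1, where 55.5% did; 0 were called. Its relatives DUSP4, at 43.6 to 49.2 TPM in AsPC-1 and 0.071 to 0.143 TPM in PANC-1, and DUSP5, at 0.603 to 1.14 TPM and 16.9 to 23.4 TPM, had the other large line differences of that list.

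The difference between the lines in the trametinib change was tested itself. None of the 9 genes passed, nor did any gene in the table in limma (0% called; 1854 genes, 9.70%, at an unadjusted p under 0.05, with 4 of the 9 among them). The change in PANC-1 minus that in AsPC-1 was -0.38 for CLDN1 (SE 0.0652, adjusted p 0.493), -0.42 for OCLN (SE 0.118, adjusted p 0.498), -0.32 for MARVELD2 (SE 0.0791, adjusted p 0.496) and -0.20 for F11R (SE 0.0497, adjusted p 0.496). Of the 9 differences 8 were negative and 1 positive, where 46.8% of all genes were positive, and the median was -0.16 against -0.01 for all genes.

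**Figure D5:**
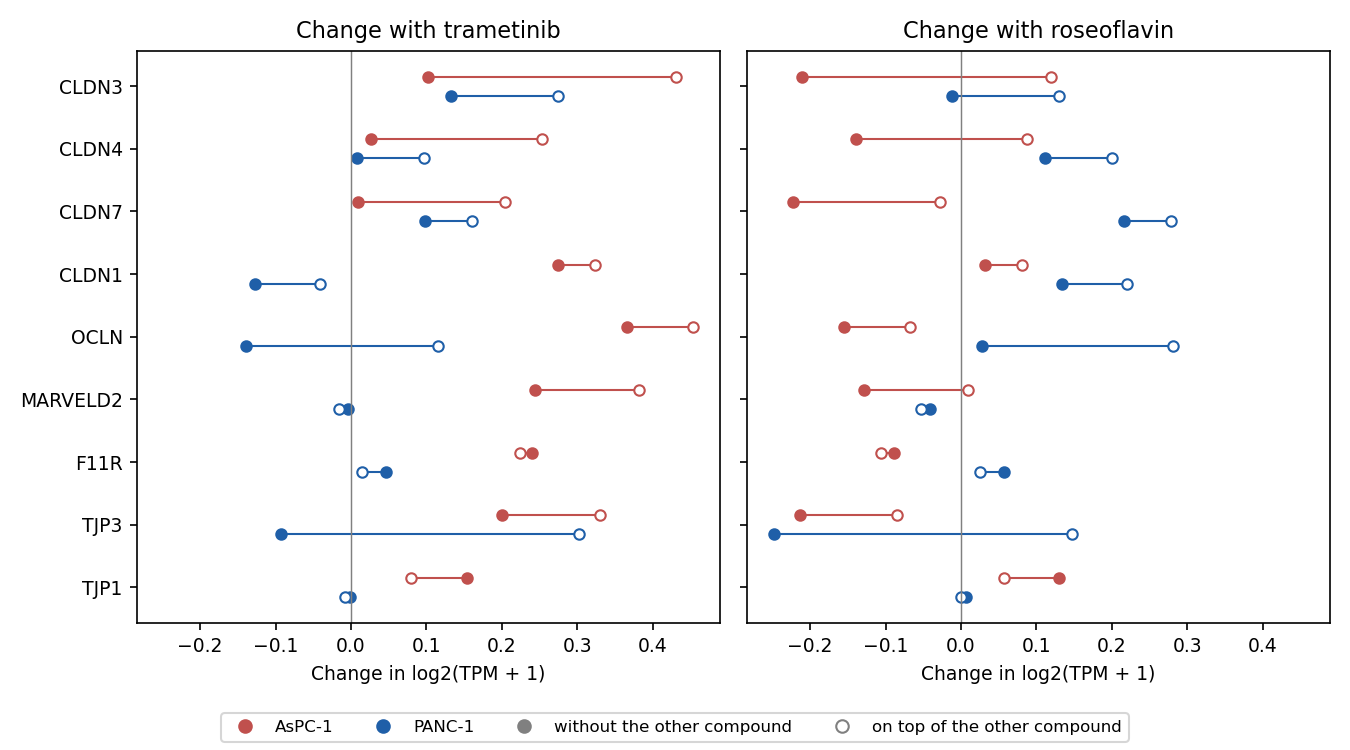
Change of each tested gene in log2(TPM + 1) (x axis) with trametinib (left) and roseoflavin (right), in AsPC-1 (red) and PANC-1 (blue), without the other compound (filled) and on top of it (open); each point is the difference of 2 single libraries. With trametinib all AsPC-1 points lie right of 0, with CLDN7 at 0.0090 and 0.20, and the PANC-1 points lie on both sides.

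Roseoflavin in AsPC-1 gave 2 positive and 7 negative estimates with a median of -0.06, where 38.9% of all tested genes were positive with a median of -0.028. In limma 0 of the 9 passed and 0% of all genes were called, with 2163 genes, 11.3%, and 0 of the 9 at an unadjusted p under 0.05. CLDN7 was the gene with both roseoflavin libraries below both others (194 and 224 TPM against 227 and 228 TPM), which 21.6% of all genes were, and 0 genes of the 9 had both above, against 10.6%. The AsPC-1 library with roseoflavin alone held the lowest level of 7 of the 9 tested genes (all but CLDN1 and TJP1). The share of all genes lowest in that library was not computed. Its mitochondrial share was the largest, 44.1%, and a link of that share with the levels was not tested. After rescaling without mitochondrial genes CLDN7 still lay below, and TJP1 had both roseoflavin libraries above both others, against 14.4% of all genes; the same held after quantile normalization, against 18.8%.

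In PANC-1 roseoflavin gave 7 positive and 2 negative estimates with a median of 0.06, where 48.9% of all tested genes were positive, and 0 of the 9 passed in limma, as did 0% of all genes (2074 genes, 10.8%, at an unadjusted p under 0.05). CLDN7 had the largest estimate, 0.25 (SE 0.0614, adjusted p 0.406), and CLDN1 stood at 0.18 (SE 0.0461, adjusted p 0.406); these were the 2 genes with an unadjusted p under 0.05. CLDN1, CLDN4, CLDN7, F11R and OCLN had both roseoflavin libraries above both others, 5 of 9 against 22.9% of all genes, and MARVELD2 had both below, against 22.7%. After rescaling without mitochondrial genes, 3 of 9 lay above (CLDN1, CLDN4 and CLDN7), against 16.5% of all genes, and 2 lay below, against 29.6%. After quantile normalization the counts stayed at 5 above, against 22.7%, and 1 below, against 22.7%.

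The line difference in the roseoflavin change gave 8 positive values of 9, where 57.9% of all genes were positive, with a median of 0.12 against 0.036 for all genes, and 0% of genes were called in limma (2227 genes, 11.6%, at an unadjusted p under 0.05). For CLDN7 the change in PANC-1 minus that in AsPC-1 was 0.37 (SE 0.0869, adjusted p 0.357), the only one of the 9 with an unadjusted p under 0.05.

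The last comparison asked whether the compounds together differed from the sum of their separate changes. Its model held 1 interaction term for both lines, so each estimate is an average over AsPC-1 and PANC-1. Differences between the lines in the compound changes stayed in its residual spread. The interaction was called for 0 of 9 genes and 0% of all genes in limma (536 genes, 2.80%, and 0 of the 9 at an unadjusted p under 0.05). The estimates were 0.26 for TJP3 (SE 0.125, adjusted p 1.00) and 0.24 for CLDN3 (SE 0.0940, adjusted p 1.00), and 7 of 9 were positive, as were 57.6% of all genes. With 1 library against 1, the combination was at least 1.2-fold above vehicle on the TPM + 1 scale for 2 genes in AsPC-1, CLDN1 (1.28-fold in TPM) and OCLN (1.25-fold), against 7.17% of all genes. In PANC-1 it was so for CLDN7 (1.30-fold), against 10.2% of all genes. In TPM itself, MARVELD2 in AsPC-1 (1.202-fold) and CLDN3 in PANC-1 (1.208-fold) were also above 1.2-fold but fell short on TPM + 1. None of the 9 was 1.2-fold lower in either line, against 13.7% of all genes in AsPC-1 and, in PANC-1, 9.43%. These differences have no replicate check.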

How the data were processed

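RNA was measured in 8 libraries, 1 per line and treatment, from TruSeq stranded mRNA libraries per the labels' protocols. The authors deposited 1 table of TPM per gene. The submitters' processing notes name hg38, STAR 2.7.3a and HTSeq 2.0.2, without saying which step each served. Depth is unknown, so no counting interval was given. Values were analysed as log2(TPM + 1) for the 19122 genes with at least 1 TPM in 2 libraries, with limma 3.58.1 in R 4.3.3 (trended prior variance) and Benjamini-Hochberg adjustment at 0.05 over all genes. The line was tested in an additive model with both compounds (4 residual degrees of freedom), compounds within lines in a model over all 8 libraries (2 residual degrees of freedom). The interaction was tested over all 8 libraries with a line term and with compound terms shared by both lines. Simulated data were used to test 1 comparison only, trametinib in AsPC-1, and the other comparisons were not tested in that way. Genes named are the 10 members, the 3 of each related list with the largest line difference among those called, any list gene called for a compound, and the 3 genes most like the members; CLDN18 was too low to test. GRHL1, GRHL2, GRHL3, FN1, KRT8 and KRT19 were named outside that rule after their values were seen. The members and lists were chosen with earlier results of these data known, so no pattern here is independent support for them. Positions are from GENCODE release 29 and promoters from RefSeq, matched by gene identifier or symbol. Alternatives were a pseudocount of 0.1, no filter, a mean of at least 10 TPM, quantile normalization, rescaling without mitochondrial genes, no trend, each library left out, and each line fitted alone.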

Additional observations from a re-analysis of the deposited data

Results flagged for a closer look

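A total of 6 results stood out because both matched changes with a compound went one way in one line and the opposite way in the other. The rule used the sign alone, with no limit on size, and the share of all genes that meet it was not computed. In PANC-1 the trametinib changes were only -0.0018 and -0.0081 for TJP1 and -0.0043 and -0.016 for MARVELD2, so these values were nearly flat there. In each case the difference between the lines was tested in limma, and none passed. With trametinib, the change in PANC-1 minus that in AsPC-1 was -0.38 for CLDN1 (adjusted p 0.493), -0.32 for MARVELD2 (adjusted p 0.496) and -0.12 for TJP1 (adjusted p 0.582), all on the log2(TPM + 1) scale. With roseoflavin it was 0.37 for CLDN7 (adjusted p 0.357), 0.27 for OCLN (adjusted p 0.480) and 0.14 for F11R (adjusted p 0.428). Each matched change is a difference of 2 single libraries.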

How the results depend on the processing

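Between the lines, 9 genes were called and kept their direction with each alternative, apart from quantile normalization, where TJP1 (-0.13, adjusted p 0.0519) was not called, and the filter on a mean of 10 TPM, which left 8 genes to test, all 8 called. Without a filter CLDN18 was tested as the tenth gene and was not called. For compounds, their differences between lines and their interaction, 0 of the 9 were called with any alternative run. The direction of some small compound estimates turned. With roseoflavin in PANC-1, TJP1 was at -0.033 after rescaling without mitochondrial genes. Leaving out 1 library at a time, estimates that turned ranged, for roseoflavin in AsPC-1, from -0.21 to 0.12 for CLDN3, -0.14 to 0.088 for CLDN4 and -0.13 to 0.0088 for MARVELD2. They ranged for roseoflavin in PANC-1 from -0.25 to 0.15 for TJP3 and -0.012 to 0.13 for CLDN3, and for trametinib in PANC-1 from -0.092 to 0.30 for TJP3 and -0.14 to 0.12 for OCLN. The cause was not tested. The counts of genes whose libraries did not overlap, and the counts of all genes and of list genes called between lines, were recomputed under other scalings, a choice made after seeing the data. By quantile normalization, 7177 genes were called higher in AsPC-1 and 7963 in PANC-1, against 4110 and 11917 as deposited. The model for the line matches the lines by treatment through its compound terms. No paired analysis by replicate number was possible because the labels carry none. Depth is unknown, and within a line each compound rests on 2 libraries against 2, so leaving 1 out leaves a lone library that is assumed to vary like the others.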

Other observations

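The genes whose variation within the lines was most like the mean of the tight junction genes were sought among 6410 genes averaging 10 TPM or more in each line, by Pearson's r of the deviations from the line mean over the 8 libraries. The mean deviation of the tight junction genes was -0.06, -0.17, 0.12 and 0.12 in AsPC-1, and for PANC-1 it was -0.05, 0.01, -0.05 and 0.09, in the order vehicle, roseoflavin, trametinib and both. That mean left out genes low in a line, CLDN18 in both lines and TJP3 in PANC-1, where TJP3 averaged 3.63 TPM. The highest r were 0.981 for ERAP1, an aminopeptidase that trims peptides for antigen presentation, 0.981 for ELK4, a transcription factor that acts with SRF, and 0.980 for ECE1, the enzyme that makes endothelin. ERAP1 was at 19.7, 18.8, 23.4 and 23.8 TPM in AsPC-1 and at 26.6, 28.1, 27.5 and 29.7 TPM in PANC-1. The r values are the highest of many and describe 8 libraries that share their totals, so they carry no p.

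LSR, the lipoprotein receptor that gathers tricellulin at 3-cell corners, was at 125 to 152 TPM in AsPC-1 and 32.1 to 36.5 TPM in PANC-1. MARVELD3, the remaining member of the occludin family, was at 6.54 to 9.08 TPM in AsPC-1 and at most 0.049 TPM in PANC-1. CDH1 had an estimate of 0.32 with trametinib in AsPC-1 (SE 0.0427, limma adjusted p 0.271), close in size to those of MARVELD2 and CLDN1. LSR, MARVELD3 and this CDH1 value were chosen after their values were seen.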
